A study of Mus musculus with 8 samples.

Results

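The nuclear-encoded subunits of mitochondrial complex I were examined in the mouse retina after MPTP. The set is a list of 34 subunit genes (the Ndufa, Ndufb, Ndufc, Ndufs and Ndufv families and Ndufab1), taken from a table of 19938 genes. All 34 were measured, each by the probe set with the highest mean signal of its gene. The mice were C57BL/6 males, 6 weeks old at the start, that received either saline or MPTP (1-methyl-4-phenyl-1,2,3,6-tetrahydropyridine). Retinas were collected after 1 week (7 days) or after 4 weeks (28 days), so the 4 groups are saline 1 week, MPTP 1 week, saline 4 weeks and MPTP 4 weeks. A group had 6 mice and was measured on 2 arrays, each of which received RNA from a pool of 4 retinas. Nothing in the labels says that the pools within a group were from different mice, and p-values therefore measure the spread between these arrays only. The whole retina was used, and fewer cells of a type cannot be told apart from less RNA per cell.

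Complex I passes electrons from NADH to ubiquinone and pumps protons across the inner mitochondrial membrane. Its catalytic core is shared with bacteria, and many accessory subunits surround it. The enzyme is built from modules. The N module oxidizes NADH, the Q module reduces ubiquinone, and the ND1, ND2, ND4 and ND5 modules form the membrane arm. MPP+, the active metabolite of MPTP, inhibits complex I, and it enters dopaminergic neurons through the dopamine transporter. In the retina the dopaminergic neurons are amacrine cells, while photoreceptors, which depend heavily on mitochondria, supply most of the cells.

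The list holds 6 core subunits (Ndufs1, Ndufs3, Ndufs7, Ndufs8, Ndufv1 and Ndufv2) and 28 accessory subunits. By module, 10 belong to N, 5 to Q, 3 to ND1, 6 to ND2, 4 to ND4 and 5 to ND5. The remaining one, Ndufab1, is the mitochondrial acyl carrier protein and sits in both arms. The probe sets of the 34 genes had mean signals between percentile 61.5 (Ndufa6) and percentile 99.0 (Ndufa10) of all genes, with a median of 85.6. These percentiles place the probe sets in the brighter part of the table and do not order the genes by expression. The probe sets of Ndufb4 name several genes, so it was not analysed here.

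RefSeq promoter windows (mouse build GRCm38.p6, 250 bases before to 50 bases after the start, 300 in all) were found for 31 of the 34 genes, in 33 windows. Ndufa2, Ndufb9 and Ndufs1 had none in the table. The windows were searched on both strands for letters associated with factors that control nuclear respiratory genes. The letters AAGATGGCG, the core of a YY1 site, were found in 5 of the 33 windows (15.2%) against 461 of all 32851 windows (1.4%). They lay in the sense direction, between 23 and 36 bases after the start, in Ndufa9, Ndufc1, Ndufs4, Ndufs6 and Ndufs7. CGCATGCG, the centre of an NRF1 site, was in 2 windows (6.06%, against 1.87% of all), those of Ndufa11 and Ndufa8. CCGGAAGT, the ETS motif that GABP reads, was in 1 window (3.03%, against 3.89%), that of Ndufs3. GGGCGG, the SP1 box, was in 15 windows (45.5%, against 35.7%). The median GC content was 59.0% in the windows of the subunits and 52.7% in all windows. The YY1 and NRF1 matches are shown, since of the 4 motifs searched these were the ones whose share in the subunits differed most, as a ratio, from that in all windows. Capitals mark the matched letters, and all sequences run from 5′ to 3′ on the strand of the gene. The YY1 letters contain ATG and may include a start codon, which the table does not mark.
Ndufa9 (chr6:126849097-126849125, minus strand): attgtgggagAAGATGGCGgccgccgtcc
Ndufc1 (chr3:51408915-51408943, minus strand): cctgcggaacAAGATGGCGccgtccgtag
Ndufs4 (chr13:114388045-114388069, minus strand): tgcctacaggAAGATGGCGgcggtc
Ndufs6 (chr13:73328433-73328459, minus strand): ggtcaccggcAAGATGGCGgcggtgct
Ndufs7 (chr10:80249463-80249491, plus strand): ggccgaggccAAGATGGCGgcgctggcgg
Ndufa11 (chr17:56717693-56717720, plus strand): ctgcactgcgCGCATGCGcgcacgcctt
Ndufa8 (chr2:36049330-36049357, minus strand): tcgctggagaCGCATGCGcagatggtac

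Some arrays stood apart. Saline 1 week array 2 and MPTP 1 week array 1 had the largest interquartile ranges over all genes, 1.90 and 1.92 in log2 units, against 1.65 to 1.74 on the other 6 arrays. The 6 rod markers measured had mean signals at or above percentile 95.7 (Nrl), which fits retinal tissue. Among markers of neighbouring tissue, the 8 lens genes averaged 8.53 (log2) on MPTP 1 week array 2 and 7.30 to 8.07 on the other 7 arrays. The 8 pigment epithelium genes averaged 7.56 on that array and 6.94 to 7.32 on the others.

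The subunits were brightest on the MPTP 1 week arrays and dimmest at 4 weeks. Their mean log2 signal was 8.68 and 8.67 on the saline 1 week arrays, 8.73 and 8.78 on the MPTP 1 week arrays, 8.60 and 8.51 on the saline 4 week arrays, and 8.63 and 8.58 on the MPTP 4 week arrays. At 1 week both MPTP arrays lay above both saline arrays, while at 4 weeks the groups overlapped. Of the 34 subunits, 16 had their highest value on MPTP 1 week array 2 and 9 on MPTP 1 week array 1. None had its highest value on a 4 week array. The lowest value of 19 subunits was on saline 4 week array 2. Among all genes, 12.3% were highest on MPTP 1 week array 2, 16.6% were highest on MPTP 1 week array 1 and 10.2% were lowest on saline 4 week array 2. Among the 7678 genes at least as bright as the dimmest subunit these shares were 14.0%, 29.3% and 17.1%. The count of 9 on MPTP 1 week array 1 is therefore not read as particular to the subunits. A single 4 week array held the highest value of 5.05% to 14.7% of all genes and of 3.36% to 7.46% of the genes as bright.

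**Figure D1:**
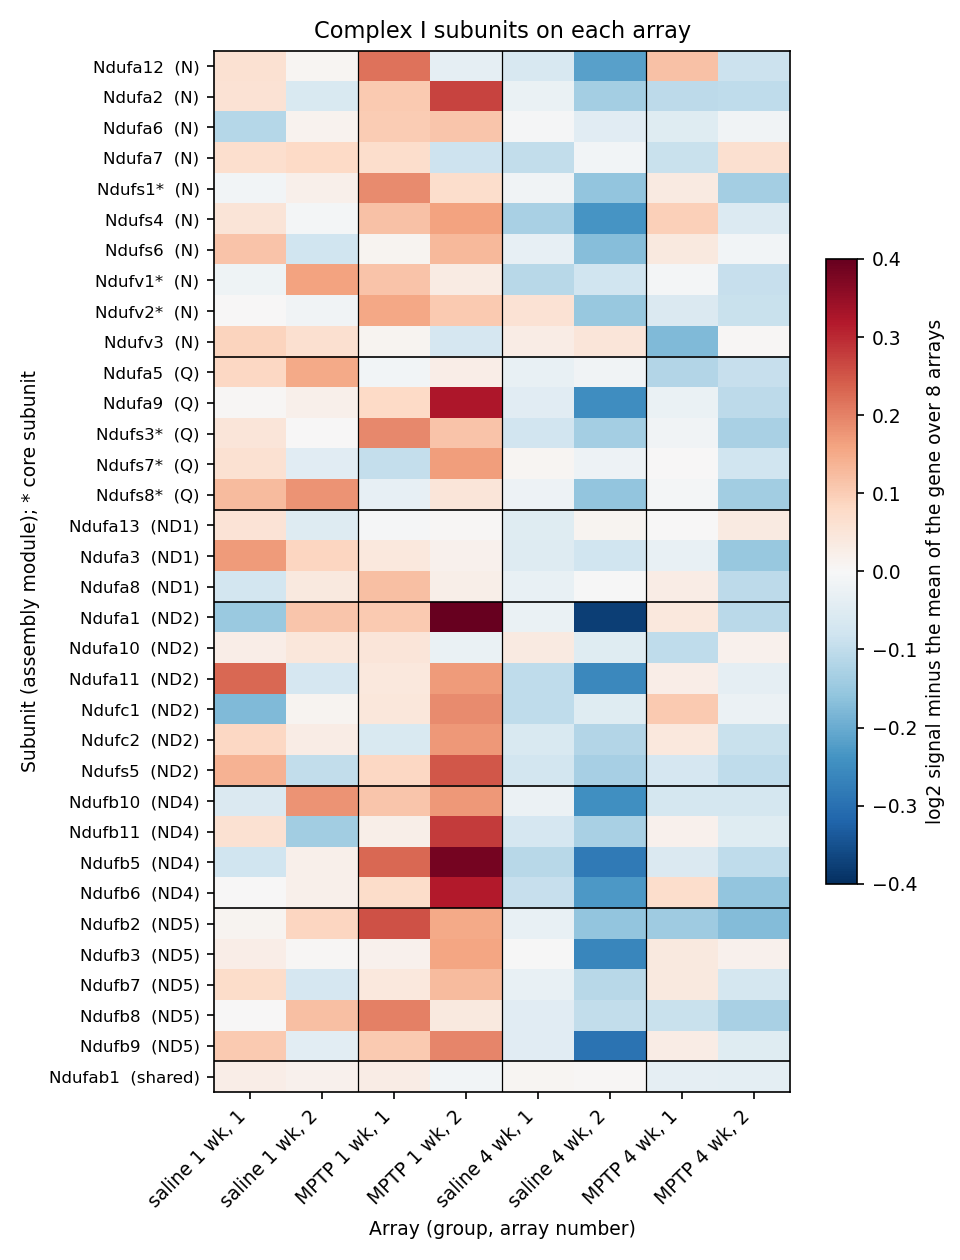
Log2 signal of each of the 34 subunits (rows, grouped by assembly module, core subunits starred) on each of the 8 arrays (columns), as the difference from the mean of that gene over the arrays. Red stands for higher and blue for lower; the column of MPTP 1 week array 2 is the highest for 16 subunits and that of saline 4 week array 2 the lowest for 19.

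**Figure D2:**
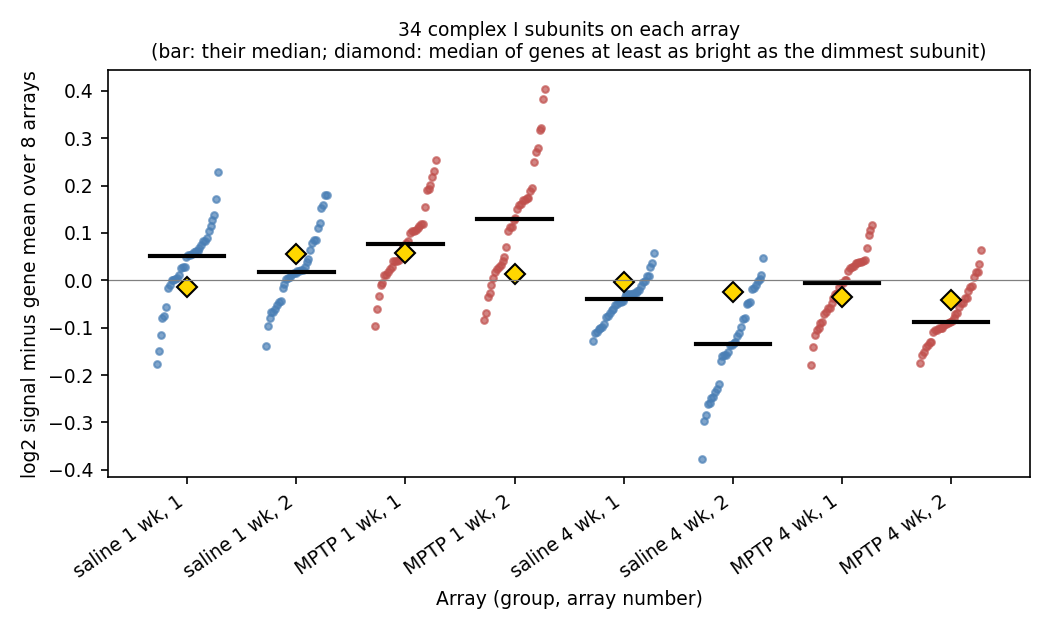
Difference of each subunit from its own mean over the 8 arrays (points, log2), by array, with blue for saline and red for MPTP. Bars are medians over the 34 subunits and run from -0.13 on saline 4 week array 2 to 0.13 on MPTP 1 week array 2; diamonds are medians over the 7678 genes at least as bright as the dimmest subunit.

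At 1 week, most complex I subunits were slightly higher after MPTP, by amounts close to the spread between arrays. The difference between MPTP and saline was above 0 for 26 of the 34, with a median log2 difference of 0.081. Values ran from -0.14 for Ndufs8, a core iron-sulfur subunit of the Q module, to 0.34 for Ndufb5, an accessory subunit of the ND4 module. Over all genes 46.9% were above 0 and the median was -0.0081. None of the 34 passed an adjusted p of 0.05 (limma, Benjamini-Hochberg over 19938 genes; smallest adjusted p 1.0), and neither did any other gene (0%). At an unadjusted p under 0.05 there was 1 subunit, Ndufb5, against 4.22% of all genes. In 12 subunits both MPTP arrays were above both saline arrays, against 12.5% of all genes, and in 4 both were below, against 13.8% of all genes. Among the 7678 genes at least as bright as the dimmest subunit these shares were 18.2% and 11.4%, with 55.7% above 0 and a median of 0.014.

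Ndufb5 had log2 values of 8.08 and 8.18 in saline at 1 week and 8.39 and 8.54 in MPTP. The groups did not overlap. The difference was 0.34 ± 0.10 (SE, n = 2 arrays per group; 95% interval 0.11 to 0.56), a 1.26-fold higher signal, with an adjusted limma p of 1.0. The intervals given for single subunits are those of the limma fit and are not adjusted for the number of genes.

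Ndufa2, an accessory subunit of the N module, measured 7.95 and 7.83 in saline and 7.99 and 8.16 in MPTP. Its groups did not overlap, although the nearest arrays were close. The difference was 0.19 ± 0.10 (95% interval -0.03 to 0.41). Ndufc1, a small subunit of the ND2 module, measured 8.41 and 8.60 in saline and 8.63 and 8.78 in MPTP, a difference of 0.20 ± 0.10 (95% interval -0.03 to 0.43), also without overlap. Ndufa1, an X-linked subunit of the ND2 module that is needed for assembly, measured 7.40 and 7.66 in saline and 7.65 and 7.95 in MPTP, a difference of 0.27 ± 0.15 (95% interval -0.06 to 0.61). One MPTP array of Ndufa1 fell between the saline arrays.

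The array that is brightest for the subunits at 1 week is also the one with the highest lens and pigment epithelium markers. All 8 lens genes had a positive difference at 1 week (46.9% of all genes), with a median of 0.18. Of these, 1 had an unadjusted limma p under 0.05, against 4.22% of all genes. The mean of the lens genes was 7.62 and 7.77 in saline and 7.30 and 8.53 in MPTP. The pigment epithelium genes did not share a direction at 1 week: 3 were above 0 and 5 below, with a median of -0.05. The mean subunit signal was above saline on both MPTP arrays. MPTP 1 week array 1, with the lens mean of 7.30, also had a large interquartile range over all genes (1.92). The part of lens or pigment epithelium content in the difference of the subunits was not tested. None of the lens genes was near the bottom of the table (lowest Mip, percentile 39.1), while the dimmest pigment epithelium gene, Tyr, was at percentile 13.3. Without MPTP 1 week array 2, 24 subunits were above 0 and the median was 0.061. Without MPTP 1 week array 1 the median was 0.11. With each array left out in turn, it ran from 0.061 to 0.11.

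At 4 weeks the differences depended on single arrays, and their size beside that at 1 week depended on the normalization. The median was 0.081 at 1 week and 0.039 at 4 weeks as deposited, 0.059 and 0.063 after quantile normalization, and 0.065 and 0.066 after cyclic loess. Of the 34 subunits, 22 were above 0, with a median log2 difference of 0.039 and a range from -0.12 (Ndufv3, an accessory subunit of the N module) to 0.20 (Ndufs4, an accessory subunit of the same module whose loss causes Leigh syndrome). Over all genes 51.8% were above 0 and the median was 0.0043. None passed the adjusted p of 0.05 in limma (smallest 1.0, 0% of all genes). None had an unadjusted limma p under 0.05, against 1.91% of all genes. In 7 subunits both MPTP arrays were above both saline arrays, against 17.4% of all genes, and in 3 both were below, against 17.9% of all genes. Among the genes as bright as the subunits these shares were 11% and 27.5%, with 39.1% above 0 and a median of -0.023. Without saline 4 week array 2, 16 subunits were above 0 and the median was -0.008. Without MPTP 4 week array 1 it was 0.0041, and without saline 4 week array 1 or MPTP 4 week array 2 it was 0.080 and 0.085.

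Ndufs4 measured 9.47 and 9.37 in saline at 4 weeks and 9.70 and 9.55 in MPTP. Both MPTP arrays were higher, with a mean difference of 0.20 ± 0.09 (95% interval -0.0062 to 0.41). Ndufa11, a membrane-arm subunit of the ND2 module, measured 8.54 and 8.38 in saline and 8.66 and 8.60 in MPTP, a difference of 0.17 ± 0.12 (95% interval -0.08 to 0.43). Its groups were also separate.

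Ndufb3, a subunit of the ND5 module, measured 7.59 and 7.33 in saline and 7.63 and 7.61 in MPTP, a difference of 0.16 ± 0.11 (95% interval -0.08 to 0.40). Saline 4 week array 2 was the low value. The same was seen for Ndufb9, an ND5 subunit of the LYR family, with 9.81 and 9.56 in saline and 9.88 and 9.81 in MPTP, a difference of 0.16 ± 0.11 (95% interval -0.08 to 0.40). Without that array the 4 week differences of Ndufb3 and Ndufb9 were 0.030 and 0.035.

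**Figure D3:**
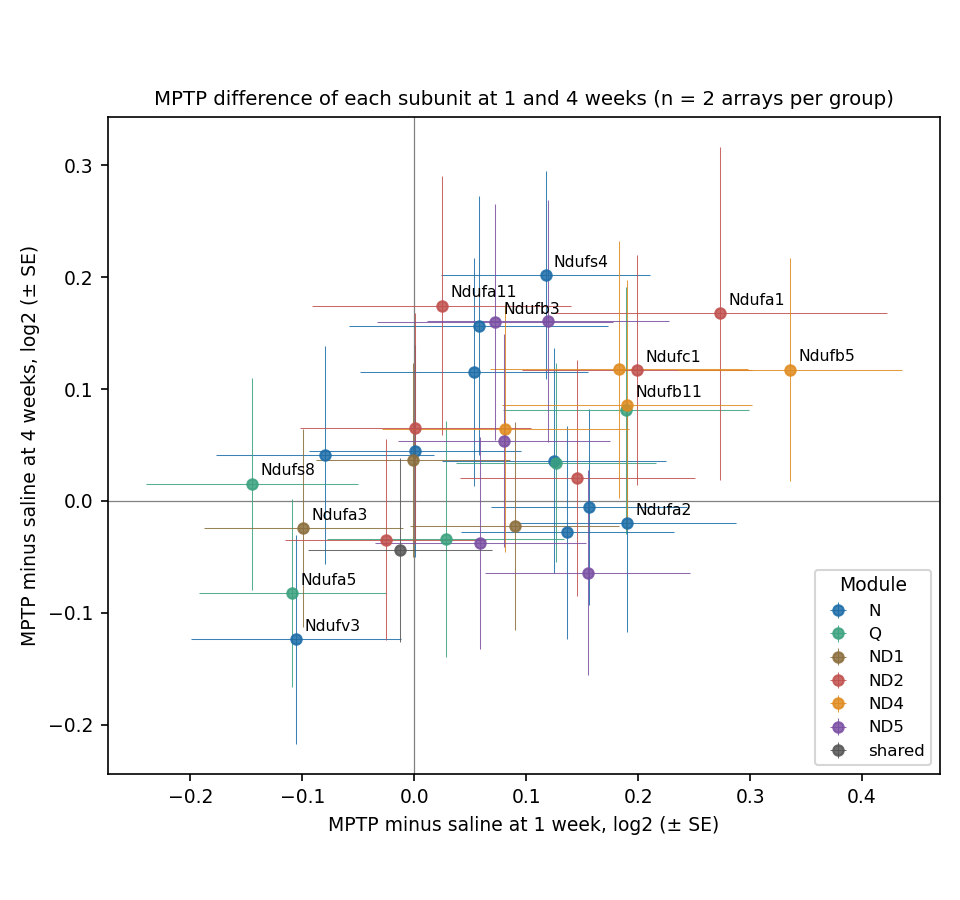
Log2 difference between MPTP and saline of each of the 34 subunits at 1 week (x axis) and at 4 weeks (y axis), with bars of 1 SE from limma (n = 2 arrays per group) and colours for the assembly modules. Of the 34 points, 19 lie above 0 at both times, and 5 lie below 0 at both; the bar crosses 0 for 15 subunits at 1 week and for 23 at 4 weeks.

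The 2 comparisons use different arrays. Across the 34 subunits, 19 were above 0 at both times, 5 were below at both and 10 had opposite signs. The differences at 1 and 4 weeks correlated across the subunits with Pearson r = 0.44 and Spearman rho = 0.38, which describes genes measured on the same arrays and not independent replicates.

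Over both times together, with time as a term and 4 arrays against 4, 26 of the 34 subunits were above 0, with a median log2 difference of 0.074. Over all genes 49.0% were above 0 and the median was -0.0017. Among the 7678 genes at least as bright as the dimmest subunit, 47.5% were above 0. No subunit passed the adjusted p of 0.05 in limma (smallest 0.973; 0% of all genes). At an unadjusted p under 0.05 there were 3, all higher after MPTP, against 4.76% of all genes. No subunit had all 4 MPTP arrays above all 4 saline arrays (1.01% of all genes), and 1, Ndufv3, had all 4 below (1.49% of all genes).

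The 3 subunits were Ndufb5, Ndufs4 and Ndufc1. Ndufb5 differed by 0.23 ± 0.07 (SE, n = 4 arrays per treatment; 95% interval 0.06 to 0.39), a 1.17-fold higher signal. Ndufs4 differed by 0.16 ± 0.06 (95% interval 0.02 to 0.30) and Ndufc1 by 0.16 ± 0.07 (95% interval 0.0061 to 0.31). The fourth in order, Ndufa1, differed by 0.22 ± 0.10 (95% interval -0.0017 to 0.44). In each of these 4 the difference was positive at both times. They were chosen by the fit over both times, which uses the same arrays, so the equal signs are not separate support.

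At 4 weeks Ndufb5 measured 8.05 and 7.88 in saline and 8.10 and 8.06 in MPTP. Ndufc1 measured 8.49 and 8.54 in saline and 8.70 and 8.57 in MPTP. Ndufa1 measured 7.52 and 7.17 in saline and 7.59 and 7.44 in MPTP. The groups were separate for Ndufb5 and Ndufc1 and overlapped for Ndufa1. Ndufs4 at 1 week measured 9.66 and 9.60 in saline and 9.72 and 9.76 in MPTP, again without overlap.

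Ndufv3 was the subunit with the lowest value. It measured 8.81 and 8.79 in saline and 8.73 and 8.65 in MPTP at 1 week, and 8.75 and 8.77 in saline and 8.55 and 8.73 in MPTP at 4 weeks. All 4 MPTP arrays were below all 4 saline arrays, with a mean difference of -0.11 ± 0.06 (95% interval -0.25 to 0.021). Ndufa5, an accessory subunit of the Q module, was also lower without overlap at each time, with a difference of -0.10 ± 0.05 over both (95% interval -0.22 to 0.02).

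The median over both times was 0.048 without MPTP 1 week array 2 and 0.048 without saline 1 week array 2, with 26 subunits above 0 in each case. With each array left out in turn, the median ran from 0.048 to 0.10, and 24 to 27 subunits were above 0. The number at an unadjusted limma p under 0.05 was not the same when single arrays were left out.

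Core and accessory subunits gave similar medians at 1 week and no test was made between them. At 1 week 5 of the 6 core subunits were above 0 (median 0.08) and 21 of the 28 accessory subunits were (median 0.08). At 4 weeks the counts were 4 of 6 (median 0.025) and 18 of 28 (median 0.06), and over both times 4 of 6 (median 0.04) and 22 of 28 (median 0.08). The core subunits lay between -0.06 for Ndufs8 and 0.08 for Ndufs3, also a core subunit of the Q module, over both times. The 4 members with the smallest p over both times were all accessory, as are 28 of the 34 members, so this is not read as a class difference.

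By module, ND4 was the one whose subunits all lay on 1 side in each MPTP comparison. All 4 were above 0 at 1 week, at 4 weeks and over both times, with medians of 0.19, 0.10 and 0.14, from 0.07 (Ndufb10) to 0.23 (Ndufb5) over both. In the ND5 module 5 of 5 were above 0 at 1 week (median 0.08), 3 of 5 at 4 weeks (median 0.05) and 5 of 5 over both (median 0.07), from 0.01 (Ndufb8) to 0.14 (Ndufb9). In the ND2 module 5 of 6 were above 0 at each time and over both, with a median of 0.09 over both, from -0.03 (Ndufa10, which resembles nucleoside kinases) to 0.22 (Ndufa1).

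The N module, which holds the NADH-binding subunit Ndufv1, had 8 of 10 above 0 at 1 week (median 0.09), 6 of 10 at 4 weeks (median 0.04) and 8 of 10 over both (median 0.08). Its subunits ran from -0.11 (Ndufv3) to 0.16 (Ndufs4) over both. The Q module had 3 of 5 above 0 at each time and 2 of 5 over both, with a median of -0.003, from -0.10 (Ndufa5) to 0.13 (Ndufa9, an accessory subunit related to short-chain dehydrogenases). In the ND1 module 1 of 3 was above 0 at each time and 2 of 3 over both, from -0.06 (Ndufa3) to 0.03 (Ndufa8). Ndufab1 differed by -0.03 over both. The modules hold 3 to 10 genes, and no test was made between them.

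**Figure D4:**
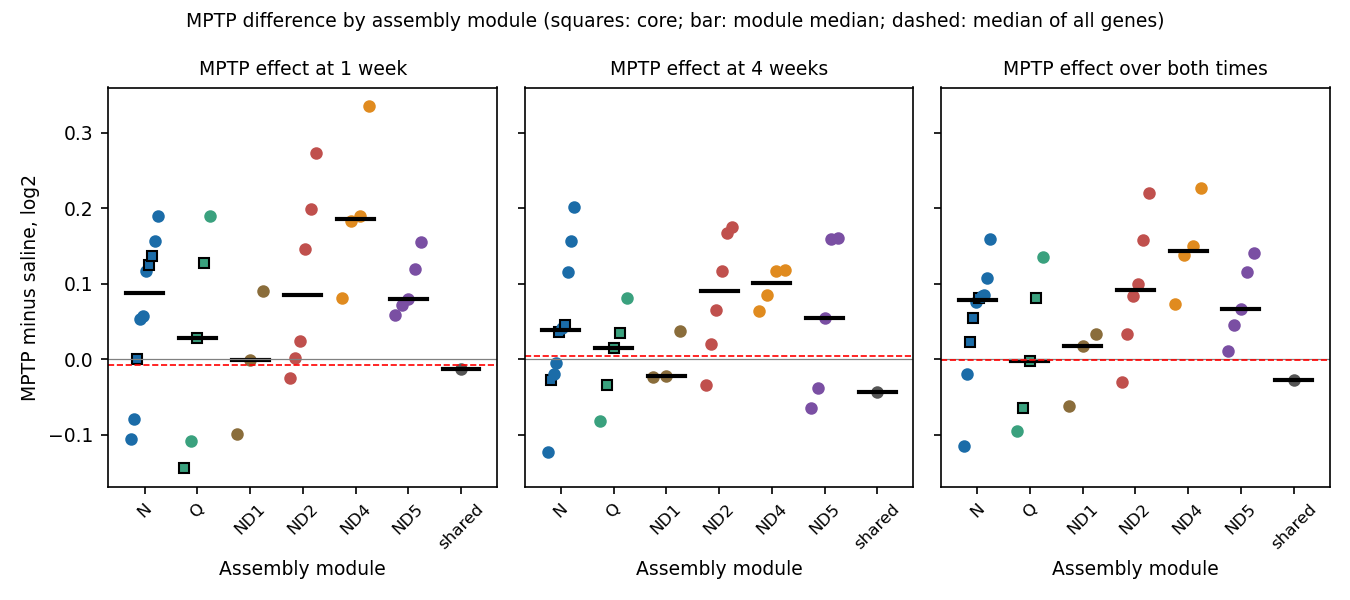
Log2 difference between MPTP and saline for each subunit (points; squares are core subunits) by assembly module, at 1 week, at 4 weeks and over both times. Bars are module medians and the dashed line is the median of all 19938 genes; in the ND4 module all 4 subunits are above 0 in each panel, while the Q and ND1 modules lie around 0.

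The 5 genes with the YY1 letters in their promoter had differences over both times from -0.003 to 0.16 (median 0.13), and the 26 other genes with a window had differences from -0.11 to 0.23 (median 0.05). The ranges overlapped, and the values are given with no test.

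The MPTP difference was not shown to change between the times. The difference at 4 weeks minus that at 1 week was below 0 in 21 of the 34 subunits as deposited and in 16 after quantile normalization or cyclic loess. The deposited values had a median of -0.029 and a range from -0.22 (Ndufb2) to 0.16 (Ndufs8). Over all genes 52.2% were above 0, while among the genes as bright as the subunits 65.1% were below 0, with a median of -0.041. None passed the adjusted p of 0.05 in limma (smallest 1.0; 0% of all genes), and none had an unadjusted p under 0.05, against 1.96% of all genes. The median was 0.014 without MPTP 1 week array 2 and 0.0053 without saline 4 week array 1, and it was -0.072, -0.056 and -0.014 without saline 4 week array 2, MPTP 4 week array 1 and saline 1 week array 2. Without MPTP 4 week array 2 it was -0.017. After quantile normalization and cyclic loess the median was 0.024 and 0.020.

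Ndufb2, a subunit of the ND5 module, had the smallest p of this comparison together with Ndufb5, Ndufa2 and Ndufa6. Ndufb2 measured 7.38 and 7.45 in saline and 7.62 and 7.52 in MPTP at 1 week, and 7.34 and 7.21 in saline and 7.23 and 7.19 in MPTP at 4 weeks. It was higher in both MPTP arrays at 1 week and overlapped at 4 weeks, and the difference between the times was -0.22 ± 0.13 (95% interval -0.51 to 0.07). For Ndufb5 and Ndufa2 that difference was -0.22 ± 0.14 (95% interval -0.53 to 0.10) and -0.21 ± 0.14 (95% interval -0.52 to 0.10).

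Ndufa6, an accessory LYR subunit that binds Ndufab1 in the complex, measured 7.23 and 7.35 in saline and 7.44 and 7.45 in MPTP at 1 week. At 4 weeks it measured 7.34 and 7.29 in saline and 7.29 and 7.33 in MPTP. The difference between the times was -0.16 ± 0.12 (95% interval -0.44 to 0.11). Ndufa2 at 4 weeks measured 7.86 and 7.75 in saline and 7.78 and 7.79 in MPTP, where the groups overlapped.

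From 1 to 4 weeks nearly all subunits were lower in the deposited values, with or without MPTP, and so were many other bright genes. The median over the subunits was below 0 under each normalization tried, and the count was not the same. In saline 31 of the 34 were lower at 4 weeks, with a median of -0.13 and a range from -0.26 (Ndufa11) to 0.02 (Ndufa6). In MPTP 33 of the 34 were lower, with a median of -0.12 and a range from -0.39 (Ndufb5) to 0.02 (Ndufa13, also known as GRIM-19). Over all genes 50.6% and 53.3% were above 0. Among the 7678 genes at least as bright as the dimmest subunit, 66.9% were below 0 in saline (median -0.034) and 76.8% in MPTP (median -0.079). The MPTP 1 week and saline 1 week arrays of these comparisons also enter the MPTP comparison at 1 week.

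None of the 34 passed the adjusted p of 0.05 with time in limma, in saline (smallest adjusted p 1.0; 0% of all genes) or in MPTP (smallest 0.507; 0% of all genes). At an unadjusted p under 0.05 there were 2 in saline (2.13% of all genes) and 7 in MPTP (9.79% of all genes), all lower at 4 weeks. Both counts changed when single arrays were left out. Without MPTP 1 week array 1, MPTP 1 week array 2 or MPTP 4 week array 1, the number of subunits above 0 in MPTP was 3, 5 and 4 in place of 1. Both 4 week arrays were below both 1 week arrays for 20 subunits in saline (15.1% of all genes) and for 22 in MPTP (21.5% of all genes). Among the genes as bright as the subunits these shares were 24.7% and 41.7%. In saline and MPTP together, 30 subunits were lower in both and 4 had opposite signs.

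In MPTP the smallest p values were those of Ndufb2, Ndufb5 and Ndufa2. Ndufb2 differed by -0.36 ± 0.09 (95% interval -0.57 to -0.16), Ndufb5 by -0.39 ± 0.10 (95% interval -0.61 to -0.16) and Ndufa2 by -0.29 ± 0.10 (95% interval -0.51 to -0.07). For each of these 3 subunits the array values above show no overlap between the MPTP 1 week and MPTP 4 week groups. The others of the 7 were Ndufa9, Ndufb8, Ndufs3 and Ndufs5, with values between -0.27 and -0.23.

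In saline the smallest p values were those of Ndufs8, Ndufa11 and Ndufa3. Ndufs8 measured 7.74 and 7.79 at 1 week and 7.59 and 7.45 at 4 weeks, a change of -0.24 ± 0.09 (95% interval -0.45 to -0.03). Ndufa11 measured 8.87 and 8.57 at 1 week against 8.54 and 8.38 at 4 weeks, a change of -0.26 ± 0.12 (95% interval -0.52 to -0.002). Ndufa3, an ND1 subunit, measured 8.95 and 8.86 at 1 week against 8.72 and 8.69 at 4 weeks, a change of -0.19 ± 0.09 (95% interval -0.39 to 0.0032). None of the 3 overlapped between the times.

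By module the medians with time in saline and MPTP were -0.11 and -0.12 for N, -0.14 and -0.11 for Q, -0.02 and -0.11 for ND1, -0.13 and -0.10 for ND2, -0.17 and -0.23 for ND4 and -0.14 and -0.16 for ND5. Core subunits had medians of -0.11 and -0.15, and accessory subunits of -0.14 and -0.12. Within the 4 week groups the arrays also differed: 27 of the 34 subunits were higher on array 1 than on array 2 in saline (median difference 0.084) and 26 in MPTP (0.064), against 47.1% and 49.9% of all genes. Without saline 4 week array 2 the median with time in saline was -0.066, while 30 subunits were still below 0.

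The size of the change with time depended on the normalization. After quantile normalization 8 subunits were above 0 in saline (median -0.084) and 13 in MPTP (median -0.033). After cyclic loess 8 and 10 were above 0 (medians -0.087 and -0.037). After centring each array on its median 1 and 0 were above 0 (medians -0.15 and -0.16). The median of the genes as bright as the subunits moved with these settings as well, to 0.004 and -0.0003 after quantile normalization and to -0.05 and -0.12 after centring. The cone markers moved with time too: all 6 were lower at 4 weeks, with medians of -0.16 in saline and -0.21 in MPTP. Their mean was 10.02 to 10.08 on the 1 week arrays and 9.84 to 9.90 on the 4 week arrays. Among the genes as bright as the subunits 66.9% were lower in saline and 76.8% in MPTP. Of the 6 rod markers, 4 were lower in saline (median -0.04) and 6 in MPTP (median -0.09). Of 4 bipolar markers 3 were lower in saline and 4 in MPTP, and of 5 amacrine markers 3 and 2. Of 5 ganglion cell markers 4 were lower in saline and 3 in MPTP, and of 5 Mueller glia markers 3 and 4. Of the 4 microglia markers, 3 were higher in saline and 4 in MPTP. Marker values are given for the deposited values only. The part of cone content, or of any other cell type, in the change of the subunits was not tested.

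**Figure D5:**
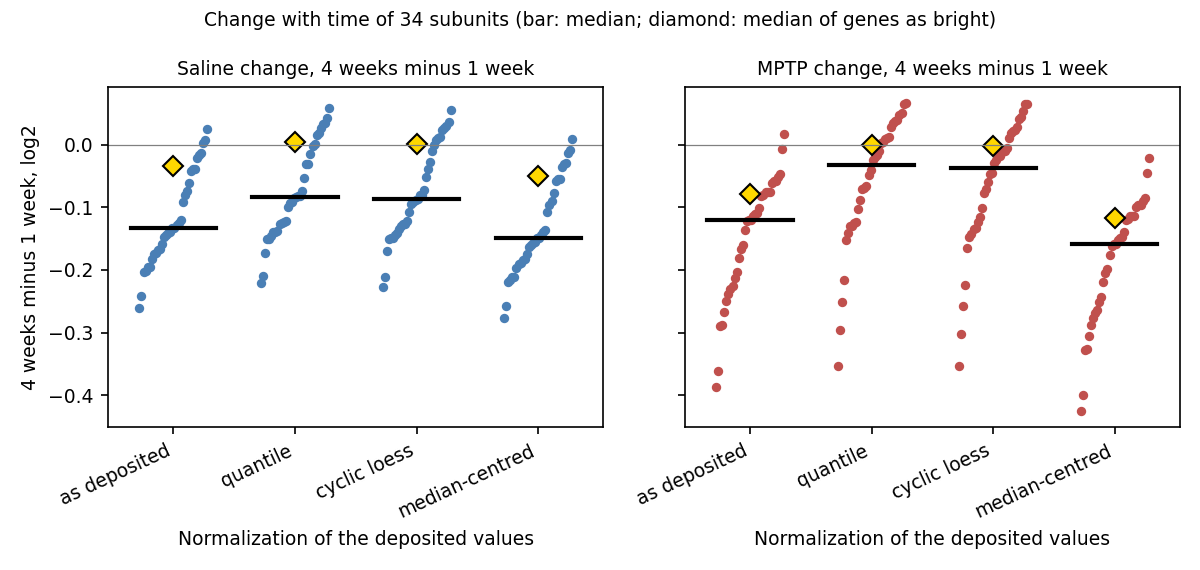
Change from 1 to 4 weeks of the 34 subunits (points, log2) in saline (left) and MPTP (right), for the deposited values and for 3 further normalizations of them. Bars are medians over the subunits and diamonds medians over the 7678 genes at least as bright as the dimmest subunit; the MPTP median moves from -0.12 as deposited to -0.03 after quantile normalization.

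Other genes of the pathway were read beside the subunits. Of the subunits outside the list, the mitochondrially encoded ND3 differed by 0.11 ± 0.08 over both times, Ndufa4, now assigned to complex IV, by 0.10 ± 0.07, and Ndufa4l2 by 0.08 ± 0.07. Among 18 of 20 complex I assembly factors measured, 13 were above 0 at 1 week (median 0.08), 9 at 4 weeks (median 0.0004) and 13 over both times (median 0.03). In that list 2 had an unadjusted limma p under 0.05 over both times, both higher, against 4.76% of all genes. These were Lyrm2, at 0.17 ± 0.06, and Ndufaf1, an early assembly chaperone, at 0.16 ± 0.07.

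Of 12 of 13 regulators of nuclear respiratory genes measured, 6 were above 0 over both times (median -0.01), against 49.0% of all genes. At an unadjusted limma p under 0.05 there was 1, against 4.76% of all genes. That was Ppargc1a, the coactivator of mitochondrial biogenesis, at 0.16 ± 0.07. Tfam, the mitochondrial transcription factor, differed by 0.21 ± 0.10, from a probe set at percentile 35.7 of the mean signal.

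Subunits of the other respiratory complexes were also more often above 0 than below. Over both times 49.0% of all genes were above 0 and 4.76% had an unadjusted limma p under 0.05. Among the genes as bright as the complex I subunits these shares were 47.5% and 5.59%. In complex III 8 of 9 were above 0 over both times (median 0.12), with 3 at an unadjusted p under 0.05, and Uqcrh and Uqcrb differed by 0.34 ± 0.07 and 0.27 ± 0.07. In complexes II, IV and V 20 of 28 were above 0 (median 0.05), with 6 at an unadjusted p under 0.05, all higher. Cox6c differed by 0.21 ± 0.06 and Atp5h by 0.18 ± 0.06. Among 18 mitochondrial genes outside the respiratory chain 11 were above 0 (median 0.004), with 2 higher and 1 lower at an unadjusted p under 0.05. The values of these lists were read beside the complex I median of 0.074 without a test between lists. With time, the complex III medians were -0.12 in saline and -0.09 in MPTP and those of complexes II, IV and V -0.13 and -0.10, beside -0.13 and -0.12 for complex I.

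Of the 34 genes, 5 had a second probe set: Ndufa11, Ndufab1, Ndufb11, Ndufc1 and Ndufs3. Over both times the second probe set had the same sign as the first in each. The values were 0.07 beside 0.10 for Ndufa11, -0.05 beside -0.03 for Ndufab1 and 0.10 beside 0.14 for Ndufb11. They were 0.08 beside 0.16 for Ndufc1 and 0.08 beside 0.08 for Ndufs3. For Ndufb11, which enters the ND4 medians, the second probe set read 0.08 beside 0.19 at 1 week and 0.12 beside 0.09 at 4 weeks. Its mean signal was 8.08, beside 10.30 for the probe set used. Whether both probe sets of a gene read the same gene copy was not tested, so the equal signs are not separate support. For Ndufa11, Ndufa12, Ndufab1, Ndufs5 and Ndufs6, RefSeq lists a pseudogene or a second copy, so their probe sets could read both and their values are uncertain in that respect.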

How the data were processed

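Total RNA of mouse retina (RNeasy Plus Mini kit) was amplified from 100 ng with a SPIA kit that adds biotin, per the labels' protocols, and hybridized to 8 arrays. Per the submitters' processing notes, the authors used RMA in Affymetrix Expression Console (version not stated), and the deposited values are on the log2 scale. No scan or hybridization batch is given in the sources used, and the number of arrays limits the precision.

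Of 28944 probe sets, 21789 named exactly 1 gene in the platform annotation, while 1621 named several and 5534 had no entry. The probe set with the highest mean was kept for each of 19938 genes, with no filter on dim signal. Genes were fitted with limma 3.58.1 in R 4.3.3, two-sided, with p-values adjusted by Benjamini-Hochberg over all genes and a threshold of 0.05. The model had 1 mean per group (4 residual degrees of freedom). For both times together it had time and treatment as terms (5 residual degrees of freedom). The SE is the moderated SE of the fit.

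The members, modules, gene lists and tests were chosen with earlier results of these data known. Per-array values are given for the 4 subunits with the smallest p in each MPTP comparison and the 3 in each time comparison, and for Ndufv3, which was chosen after its values were seen. Each module has its highest and lowest subunit over both times named, and other lists at most the 2 genes with the smallest p. The labels state no pairing of arrays across groups, and the main fit used none. Alternatives were 3 further normalizations, probe set and filter choices, eBayes settings, blocks, and arrays left out. The fit was tested on simulated data, with genes drawn independently and planted differences larger than that of any subunit. That test does not speak to differences of the size seen here. Plots were made in matplotlib 3.10.9 under Python 3.11.15.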

Additional observations from a re-analysis of the deposited data

How the results depend on the processing

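No subunit passed an adjusted limma p of 0.05 in any of the 6 comparisons under any of 19 alternatives, and none of the 22 differences followed for 12 named subunits changed its sign. The named subunits were chosen by the smallest p in these same arrays, so their unchanged signs are not separate support. Of 746 pairs of a result and an alternative, 731 were unmoved and 15 moved. A median counted as moved past 1 SD between arrays of a group (0.0495) and a count past 1.5 times. The 410 pairs of named subunits could move only by a change of sign or of the side of the adjusted limma p of 0.05. The limit of 0.0495 exceeds the median MPTP difference at 4 weeks (0.039), so its shift to -0.008 counted as unmoved. The share unmoved is therefore not a measure of stability. The cause of the moves was not tested. The values that moved concern the changes with time and the difference between times. Quantile normalization gave 0.024 for the median difference between times. In saline, 8 subunits were above 0 with time after quantile normalization, 8 after cyclic loess and 1 after centring on the median. In MPTP the counts were 13, 10 and 0, with 3 when the 2 arrays that stand apart were left out, and the MPTP medians were -0.033 after quantile normalization and -0.037 after cyclic loess. With each array left out in turn, the median with time ran from -0.16 to -0.066 in saline and from -0.18 to -0.10 in MPTP, where 1 to 5 subunits were above 0. The MPTP difference at 4 weeks ran from -0.008 to 0.085 (16 to 26 above 0), that at 1 week from 0.061 to 0.11 (22 to 26 above 0), and that over both times from 0.048 to 0.10 (24 to 27 above 0). The fit of only the groups compared is the same fit for the comparison over both times and the difference between times, and was not run there.

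With the array number as a replicate block, 0 subunits passed the adjusted p, and 1, 0 and 3 had an unadjusted p under 0.05 at 1 week, at 4 weeks and over both times, with 1 in saline and 4 in MPTP with time. The pairing was not borne out over all genes. There, array differences of the saline and MPTP 1 week groups correlated at r = -0.383, and the other pairs of groups lay between -0.16 and 0.207. Over the subunits r ran from -0.35 (MPTP 1 week with saline 4 weeks) to 0.33 (saline with MPTP at 4 weeks). An effect of the array number on the subunits at 4 weeks was not tested. With the numbers of MPTP 1 week exchanged, the counts at an unadjusted limma p under 0.05 were 1, 1, 5, 3 and 8 in the same order, and again 0 passed the adjusted p. The shares of all genes under these blocks are not given, so the counts are not read as a result about the subunits.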
